A study of Drosophila melanogaster with 12 samples.

Results

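Heads of ADAR hypomorph flies and of WT flies, both kept at 18°C and collected at 3 to 6 days of age, were compared by 3' RNA-seq. The comparison took the 6 libraries of the cool temperature, 3 of each strain, from the 12 libraries of the series, and the other 6, the same strains at 29°C, were used to estimate the spread and to ask whether a difference between the strains changed with temperature. The hypomorph carries an allele of Adar with reduced function, described in the study as a transposon insertion in an intron of the gene. The study's methods name the strain Adar5G1, while its text elsewhere sets ADAR5G1 flies apart from hypomorph flies, so which allele these libraries carry is not settled here, and neither is what the level of Adar RNA shows of it. The WT strain is given only as wild type. The sources used here do not say whether the strains share a genetic background, nor the sex of the flies, so the effects of the allele, of other differences between the stocks and of the share of females cannot be told apart. In 3' RNA-seq, fragments next to the poly(A) tail are sequenced, so that the reads of a gene follow its number of mRNA molecules, and a gene is seen only through the 3' end that the annotation gives it.

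ADAR converts adenosine to inosine in double-stranded RNA, and the fly has this enzyme from a single gene, most active in the nervous system. Inosine is read as guanosine, so that editing in coding sequence changes the protein, and many of the known recoded transcripts encode ion channels and proteins of synaptic vesicle release. The fly head holds the brain and the compound eyes, and also cuticle, antennae, muscle and a layer of fat body, which makes the yolk proteins of females, storage proteins, antimicrobial peptides and enzymes of detoxification and metabolism.

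The 6 libraries held 4409119 to 7449096 counts. In WT, 15.9% to 16.8% of a library's counts fell on its 10 top genes, against 10.8% to 11.7% in the hypomorph. Counts were therefore scaled by edgeR's TMM method and are given as CPM, the counts of a gene per 1000000 counts of the scaled library. Values of a gene are listed for the library without a replicate number first, then for replicates 2 and 3. Adar, on the X chromosome, was at 40.1, 40.9 and 35.2 CPM in WT and at 37.7, 22.5 and 28.01 CPM in the hypomorph. The groups overlapped, because the unnumbered hypomorph library lay within the WT range while the other hypomorph libraries lay below it. The log2 fold change (hypomorph over WT) was -0.41 ± 0.14 (SE, edgeR adjusted p = 0.0424), and an exact permutation test of the 6 values gave p = 0.2 (two-sided, smallest possible p 0.1). The call was lost with adjusted p = 0.104 without the unnumbered WT library, 0.125 without WT replicate 2, 0.187 without hypomorph replicate 2 and 0.112 without hypomorph replicate 3, and with total count scaling (adjusted p = 0.298). At 29°C the mean was 39.7 CPM in WT and 23.2 CPM in the hypomorph (-0.77 ± 0.14 SE, edgeR adjusted p = 8.59e-04). A difference in this effect between the temperatures did not pass the test (edgeR adjusted p = 0.443). The study itself reports significantly lower adar mRNA in its hypomorph flies, and editing well below that of its control flies. The unnumbered hypomorph library carried the strain's pattern elsewhere, with the P450 gene Cyp6a17 at 0 counts in all 3 hypomorph libraries against 28.3, 44.01 and 38.2 CPM in WT.

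Of 9553 genes tested, 1109 were higher (11.6%) and 1391 were lower (14.6%) in the hypomorph at an adjusted p under 0.05 (edgeR's quasi-likelihood test, Benjamini-Hochberg adjustment), and these shares are the background for each group of genes below. Beyond a log2 fold change of 1, 182 (1.91%) were higher and 257 (2.69%) were lower. At that fold change with an unadjusted p under 0.05, 231 (2.42%) were higher and 295 (3.09%) lower. In 38.3% of all genes tested the libraries of one strain lay wholly above or wholly below those of the other. The median log2 fold change over all genes tested was 0.01. Scaling to total counts shifted that median to 0.20 and turned the calls to 2640 higher and 780 lower, 77.2% of calls higher against 44.4% with TMM, so that small differences shared by a whole group of genes depend on the scaling. Most groups below are given with both scalings, and the others, among them the cell type markers and the dosage compensation genes, with TMM only. In bulk heads, fewer cells of a type and less RNA per cell cannot be told apart, and this holds for every group of genes below.

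**Figure D1:**
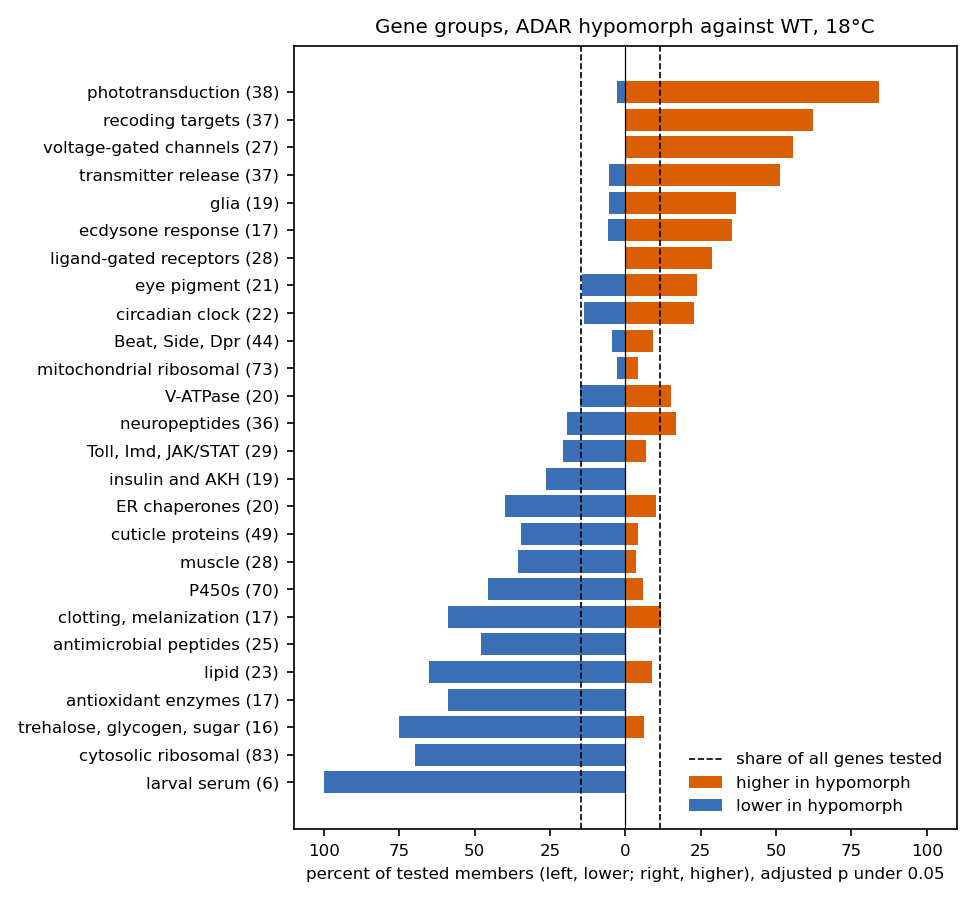
Share of the tested members of 26 gene groups that were higher (right, orange) or lower (left, blue) in ADAR hypomorph heads at 18°C, in percent of tested members, with the number of members tested in parentheses. The dashed lines mark the share of all 9553 tested genes, 11.6% higher and 14.6% lower. Genes of phototransduction, voltage-gated channels and recoding targets stood to the right, and larval serum, cytosolic ribosomal, sugar and lipid genes to the left.

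The light-sensing machinery of the eye gave the broadest rise. Of 38 genes for rhodopsins, the phototransduction cascade and photoreceptor structure, all tested, 32 were higher and 1 was lower, with a median log2 fold change of 0.91 under TMM and 1.10 under total count scaling. The summed level of the group was 14461, 14199 and 13165 CPM in WT and 39414, 39161 and 38620 CPM in the hypomorph, so that the groups were far apart and each strain's libraries were close together. Before scaling they made up 1.29% to 1.41% of all counts in the WT libraries and 4.23% to 4.58% in those of the hypomorph.

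The gene with the largest rise in the group was ninaE, which encodes Rh1, the opsin of the outer photoreceptors. ninaE was at 2039, 1689 and 1867 CPM in WT and at 11083, 11224 and 11590 CPM in the hypomorph, a log2 fold change of 2.60 ± 0.09 (SE, edgeR adjusted p = 5.13e-11). The strains were separated by several times the range within either of them, and ninaE gave the largest single part of the rise in the summed level. Among the opsins of the inner photoreceptors, Rh4 was at 312, 321 and 294 CPM in WT and at 829, 824 and 859 CPM in the hypomorph, a change of 1.44 ± 0.06 (SE, edgeR adjusted p = 5.37e-10). Rh3 (0.71), Rh5 (1.10) and Rh6 (0.84) also rose. Rh2, the opsin of the ocelli, was at 178, 188 and 174 CPM in WT and at 187, 178 and 175 CPM in the hypomorph, and its change of 0.00 ± 0.07 (SE, edgeR adjusted p = 0.997) did not pass the test. All 5 of these compound eye opsins were higher, and for Rh2 the groups overlapped.

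The arrestins, which end the response of activated rhodopsin, were among the most abundant genes that rose. Arr1 was at 1932, 1989 and 1587 CPM in WT and at 5281, 5201 and 5186 CPM in the hypomorph (1.51 ± 0.08 SE, edgeR adjusted p = 1.94e-09). Arr2 was at 3585, 3518 and 3123 CPM in WT and at 9166, 9434 and 8755 CPM in the hypomorph (1.42 ± 0.08 SE, edgeR adjusted p = 3.19e-09). In both, every hypomorph library stood above every WT library by more than the range within either strain. Of the trimeric G protein, Galphaq (0.97), Gbeta76C (1.16) and Ggamma30A (1.13) rose, as did norpA, the phospholipase C that they activate (0.93). The light-activated channel trp was at 421, 409 and 372 CPM in WT and at 963, 962 and 859 CPM in the hypomorph (1.21 ± 0.07 SE, edgeR adjusted p = 5.25e-09), and its partner trpl rose less (0.51). The scaffold inaD (0.98), the protein kinase C inaC (0.90) and the myosin ninaC, at 441, 451 and 459 CPM in WT and at 1083, 1026 and 994 CPM in the hypomorph (1.20 ± 0.05 SE, edgeR adjusted p = 4.25e-10), completed the signaling complex. Of the lipid enzymes that refill the cascade, rdgA (0.71), rdgB (0.51), laza (0.67) and CdsA (0.71) rose. Structural genes of the photoreceptor rose too, with chp (chaoptin) at 1.07, eys at 0.84 and Cpn at 1.16.

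The exception was ninaD, which encodes a scavenger receptor for the uptake of carotenoids, the source of the chromophore. ninaD was at 7.68, 18.3 and 20.97 CPM in WT and at 4.1001, 3.48 and 4.79 CPM in the hypomorph (-1.94 ± 0.33 SE, edgeR adjusted p = 3.73e-04), with all hypomorph libraries below the lowest WT library. The other uptake receptor, santa-maria, had a change of 0.07 and did not pass, and the carotenoid oxygenase ninaB rose (0.42, adjusted p = 0.0872 without WT replicate 3 and 0.0562 without the unnumbered hypomorph library). Outside the list, retinin, a protein of the corneal lens, was at 3220, 3378 and 2939 CPM in WT and at 10039, 9356 and 8937 CPM in the hypomorph (1.57 ± 0.07 SE, edgeR adjusted p = 2.69e-10). Hdc, which makes histamine, the transmitter of photoreceptors, was at 8.995, 9.13 and 11.9 CPM in WT and at 18.4, 16.5 and 20.6 CPM in the hypomorph (0.87 ± 0.17 SE, edgeR adjusted p = 0.00106). The 7 photoreceptor markers (ninaE, trp, norpA, inaD, ninaC, Arr2 and chp) were all described above, so their rise is no separate observation. Their summed level was 7053, 6663 and 6418 CPM in WT and 23593, 23776 and 23332 CPM in the hypomorph. Whether eye size or the number of photoreceptors differed was not tested.

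**Figure D2:**
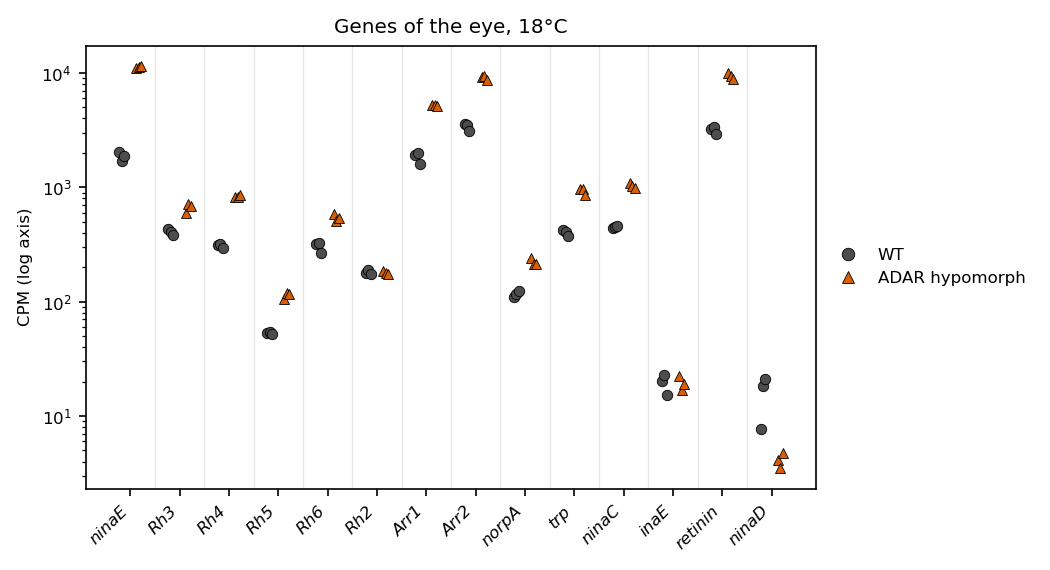
Level of 14 genes of the eye in each library at 18°C, in CPM on a log axis (circles, WT, triangles, ADAR hypomorph, 3 libraries each). In every gene but Rh2, inaE and ninaD the 3 hypomorph libraries stand above the 3 WT libraries, with the widest gap at ninaE and the reverse order at ninaD.

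Of 21 tested eye pigment genes, 5 were higher and 3 lower, with a median of 0.05 (with total count scaling 6 higher and 2 lower, median 0.24), and the count of higher genes was 3 without the unnumbered WT library or WT replicate 2 and 2 without hypomorph replicate 3. The white gene w, an ABC transporter subunit that carries pigment precursors, stood apart at 1.54, 3.104 and 2.62 CPM in WT and 30.8, 35.3 and 30.3 CPM in the hypomorph (3.69 ± 0.17 SE, edgeR adjusted p = 7.62e-10). Its partner bw rose less (0.71, adjusted p = 0.0533 without hypomorph replicate 3). The vesicle trafficking gene lt was at 19.3, 14.4 and 17.6 CPM in WT and at 31.2, 25.01 and 28.8 CPM in the hypomorph (0.72 ± 0.13 SE, edgeR adjusted p = 5.55e-04). Of the enzymes of pigment synthesis, sepia (se) was at 269, 221 and 329 CPM in WT and at 164, 157 and 157 CPM in the hypomorph (-0.78 ± 0.11 SE, edgeR adjusted p = 9.16e-05), and rosy (ry, -0.56) and vermilion (v, -0.32) were also lower, v not past the threshold with total count scaling (adjusted p = 0.184). The change of w was the largest of the list. w lies on the X chromosome like Adar, with 118 tested genes between them in the gene order of the reference annotation.

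Genes of neuronal excitability and transmission were also more often higher than lower. Of 27 tested voltage-gated channels and their subunits, 15 were higher and none lower (median 0.43, with total count scaling 23 higher and none lower, median 0.62). Of 28 ligand-gated receptors, 8 were higher and none lower (median 0.30, with total count scaling 14 higher and none lower, median 0.49). Of 37 genes of transmitter synthesis and vesicle release, 19 were higher and 2 lower (median 0.27, with total count scaling 26 higher and 1 lower, median 0.47). Without the unnumbered hypomorph library, which had the highest level of many of these genes, 10 of 27, 4 of 28 and 16 of 37 were higher, and without WT replicate 3 the receptors also gave 4.

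Among the channels, eag, a voltage-gated potassium channel, was at 7.899, 8.22 and 6.99 CPM in WT and at 21.5, 20.5 and 19.3 CPM in the hypomorph (1.41 ± 0.19 SE, edgeR adjusted p = 4.01e-05). The cation leak channel na was at 8.56, 5.66 and 6.55 CPM in WT and at 18.2, 13.7 and 11.8 CPM in the hypomorph (1.07 ± 0.22 SE, edgeR adjusted p = 0.00173). The presynaptic calcium channel cac was at 51.998, 52.6 and 43.98 CPM in WT and at 119.7, 78.999 and 91.7 CPM in the hypomorph (0.96 ± 0.13 SE, edgeR adjusted p = 4.78e-05). In each of them the groups did not overlap, and in na and cac the unnumbered hypomorph library was the highest. KCNQ, a further potassium channel, rose by 0.84 ± 0.19 (SE, edgeR adjusted p = 0.00324). Of the receptors, the glutamate-gated chloride channel GluClalpha was at 49.6, 38.2 and 41.6 CPM in WT and at 79.5, 79.9 and 65.6 CPM in the hypomorph (0.80 ± 0.13 SE, edgeR adjusted p = 2.62e-04). The acetylcholine receptor subunit nAChRbeta1 was at 115, 118 and 117 CPM in WT and at 199, 145 and 146 CPM in the hypomorph (0.49 ± 0.10 SE, edgeR adjusted p = 0.00249). Both strains' libraries were separate in each receptor. Gad1, which makes the inhibitory transmitter GABA, was at 64.3, 63.7 and 59.3 CPM in WT and at 157, 142 and 148 CPM in the hypomorph (1.26 ± 0.07 SE, edgeR adjusted p = 3.60e-09), the largest rise among the release genes. Complexin (cpx), a clamp of vesicle fusion, was at 186, 199 and 176 CPM in WT and at 306, 291 and 286 CPM in the hypomorph (0.65 ± 0.06 SE, edgeR adjusted p = 1.47e-06), and synapsin (Syn) rose by 0.55 ± 0.11 (SE, edgeR adjusted p = 0.00193).

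A few presynaptic genes went the other way. Outside the list of release genes, Rab3-GEF, the exchange factor of the vesicle GTPase Rab3, was at 19.1, 21.5 and 22.4 CPM in WT and at 1.95, 1.37 and 1.35 CPM in the hypomorph (-3.79 ± 0.19 SE, edgeR adjusted p = 1.39e-09). All hypomorph libraries were far below the lowest WT library. The active zone protein Rim was at 63.4, 71.9 and 54.5 CPM in WT and at 53.9, 43.9 and 42.4 CPM in the hypomorph with a change of -0.44 ± 0.12 (SE, edgeR adjusted p = 0.0154), and this call was lost with adjusted p = 0.0855 without WT replicate 2, 0.0576 without hypomorph replicate 2 and 0.0683 without hypomorph replicate 3, and with total count scaling (0.165). Tyrosine hydroxylase (ple), which makes dopamine and is also used in hardening cuticle, was at 113, 137 and 278 CPM in WT and at 105, 89.3 and 55.2 CPM in the hypomorph (-1.09 ± 0.30 SE, edgeR adjusted p = 0.0143). Its WT libraries spread widely, with replicate 3 far above the others, and the call was lost with adjusted p = 0.103 without WT replicate 3 and 0.0640 without hypomorph replicate 3.

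The study names genes whose recoding depends on temperature, chosen for their editing. Of these 37 recoding targets, 23 were higher and none lower in the hypomorph, with a median log2 fold change of 0.41 (0.60 under total count scaling). Of the targets, 19 were also counted among the channels, receptors and release genes above. The largest rises were those of eag and na and of CG12858, at 20.8, 23.7 and 27.96 CPM in WT and at 65.4, 51.3 and 56.5 CPM in the hypomorph (1.24 ± 0.12 SE, edgeR adjusted p = 1.13e-06). CG42492 was at 62.5, 61.7 and 58.5 CPM in WT and at 115, 84.8 and 93.9 CPM in the hypomorph (0.68 ± 0.10 SE, edgeR adjusted p = 6.50e-05). With the unnumbered hypomorph library left out, 17 of the 37 were higher. Of 9 neuronal markers, 5 were higher and none lower, with a summed level of 792, 808 and 794 CPM in WT and 1074, 920.4 and 953 CPM in the hypomorph. Several of these markers are themselves a channel (para), a receptor (Rdl) or genes of vesicle release (nSyb, Syt1 and brp). They are therefore not independent of the groups above. The vesicle SNARE nSyb was at 175, 172 and 171 CPM in WT and at 251, 244 and 249 CPM in the hypomorph (0.52 ± 0.07 SE, edgeR adjusted p = 3.57e-05). The microtubule protein futsch was at 99.6, 99.9 and 108 CPM in WT and at 145, 146 and 142 CPM in the hypomorph (0.49 ± 0.07 SE, edgeR adjusted p = 4.78e-05). Their part in the rise of the channel and target genes was not tested.

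Of 19 glial genes, 7 were higher and 1 was lower (median 0.13, with total count scaling 10 higher and none lower, median 0.32). The glutamate transporter Eaat2 was at 105, 116 and 108 CPM in WT and at 160.5, 137 and 146 CPM in the hypomorph (0.43 ± 0.07 SE, edgeR adjusted p = 3.50e-04), and the trehalose transporter Tret1-1 fell by 0.30 on the log2 scale, from 315, 301 and 317 to 243, 255 and 262 CPM, and was not called with total count scaling (adjusted p = 0.177). Among 44 recognition proteins of the Beat, Side and Dpr families, 4 were higher and 2 lower (median 0.16, with total count scaling 10 higher and 1 lower, median 0.35). The count of lower ones was 1 without the unnumbered WT library, WT replicate 2, WT replicate 3, hypomorph replicate 2 or hypomorph replicate 3. beat-Ib, which guides motor axons with its relatives, had 0 counts in all hypomorph libraries and 14.7, 13.3 and 13.5 CPM in WT, at least 31.3-fold lower against a floor of 3 counts per library. Its neighbour in the family, beat-Ic, was at 4.61, 4.02 and 3.49 CPM in WT and at 7.03, 6.72 and 7.004 CPM in the hypomorph (0.79 ± 0.20 SE, edgeR adjusted p = 0.00756), in the opposite direction.

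Products of the fat body gave the largest falls of any group. The 6 larval serum genes, a list of storage proteins and other fat body proteins, were all lower, with a median log2 fold change of -4.26 (with total count scaling none higher and 6 lower, median -4.08). Lsp2 was at 1174, 1022 and 966 CPM in WT and at 30.7, 21.9 and 30.2 CPM in the hypomorph (-5.26 ± 0.21 SE, edgeR adjusted p = 2.05e-10). Fbp1, the receptor of the storage hexamers, was at 33.6, 10.4 and 29.6 CPM in WT and at 2.15, 0.622 and 0.737 CPM in the hypomorph (-4.52 ± 0.58 SE, edgeR adjusted p = 2.77e-05). Fbp2 was at 17.8, 6.21 and 17.5 CPM in WT and at 0.586, 1.37 and 0.491 CPM in the hypomorph (-4.01 ± 0.53 SE, edgeR adjusted p = 4.02e-05). The groups did not overlap in any of the 6, and WT replicate 2 was the lowest WT library for Fbp1 and Fbp2. Lsp1alpha had 125 counts in WT and 6 in the hypomorph, a ratio of 26.2-fold (95% counting interval 11.7 to 72.9). All 6 differed in their strain effect between 18°C and 29°C, and none was called at 29°C.

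The yolk proteins were the most abundant transcripts that changed. Yp1, Yp2 and Yp3 together took 10.2%, 9.87% and 9.44% of the counts of the WT libraries and 2.40%, 3.44% and 3.23% of those of the hypomorph. Yp2 was at 41758, 39474 and 37432 CPM in WT and at 7684, 11743 and 10629 CPM in the hypomorph (-1.98 ± 0.12 SE, edgeR adjusted p = 8.31e-09), and Yp1 (-1.78) and Yp3 (-1.88) fell alike. fit, a satiety peptide of the fat body that is made mostly by females, was at 1437, 1387 and 1051 CPM in WT and at 149.9, 223 and 174 CPM in the hypomorph (-2.82 ± 0.14 SE, edgeR adjusted p = 1.23e-09). In all 4 genes the unnumbered hypomorph library was the lowest, and every hypomorph library was below every WT library. Obp99a, a secreted binding protein, was at 650.3, 645 and 501 CPM in WT and at 67.4, 165 and 105 CPM in the hypomorph (-2.40 ± 0.25 SE, edgeR adjusted p = 4.09e-06).

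Of 9 tested genes of male dosage compensation, 3 went the other way and none was lower. Only roX2 kept its call in every alternative processing. roX2, a noncoding RNA of the complex that raises transcription from the male X chromosome, was at 7.02, 3.29 and 4.37 CPM in WT and at 18.4, 12.8 and 12.5 CPM in the hypomorph (1.58 ± 0.23 SE, edgeR adjusted p = 8.97e-05). roX1 was at 614, 397 and 467 CPM in WT and at 1136, 667 and 608 CPM in the hypomorph, with overlapping groups, a change of 0.71 ± 0.20 (SE, edgeR adjusted p = 0.0172) and a call that was lost with adjusted p = 0.0858 without WT replicate 2, 0.0585 without WT replicate 3 and 0.126 without the unnumbered hypomorph library. msl-2, the male-specific protein of the complex, was at 6.36, 6.94 and 4.95 CPM in WT and at 10.5, 8.21 and 10.4 CPM in the hypomorph (0.68 ± 0.18 SE, edgeR adjusted p = 0.00898), lost with adjusted p = 0.0608 without WT replicate 3. The other 6 genes of the complex were not called. At 29°C roX2 was higher too (0.64 ± 0.17 SE, edgeR adjusted p = 0.0124), while roX1 was not called (-0.31 ± 0.20 SE, edgeR adjusted p = 0.347). Yolk proteins mark females and roX RNAs mark males. At 18°C the yolk proteins were lower and the roX RNAs higher in the hypomorph, and both were at their extreme in the unnumbered hypomorph library. In WT, by contrast, the unnumbered library was the highest for roX1 and roX2 and also for Yp2 and Yp3, though not for Yp1. The share of females in each library was not tested. Of 6 tested genes put together here as male-biased in heads, 3 were higher (roX1, roX2 and msl-2) and 2 lower (Obp99a and sxe2). The sex bias of these members, that of Obp99a included, was not tested, so the list is no measure of sex. sxe2 was at 79.6, 61.5 and 77.3 CPM in WT and at 62.1, 56.7 and 47.2 CPM in the hypomorph, with overlapping groups (-0.40 ± 0.11 SE, edgeR adjusted p = 0.0146), and its call was lost with adjusted p = 0.0628 without the unnumbered WT library, 0.0502 without WT replicate 3 and 0.0729 without hypomorph replicate 3, and with total count scaling (0.188). The count of higher ones was 1 without WT replicate 3. Markers of testis and accessory gland summed to 3.12 to 5.97 CPM and markers of ovary to 2.73 to 10.4 CPM over the 6 libraries, and none of their 4 tested members was called.

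**Figure D3:**
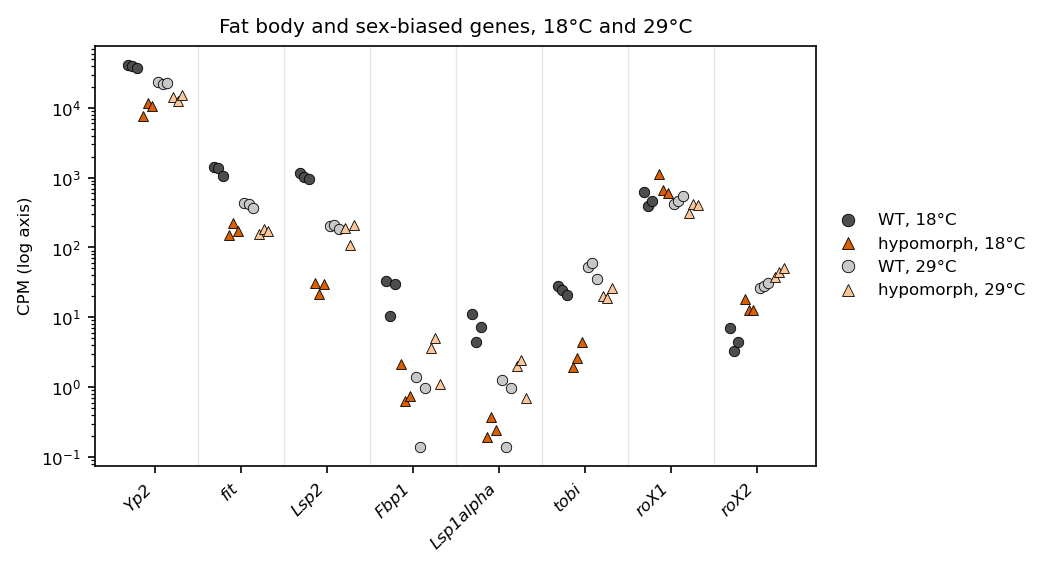
Level of 8 genes of fat body and sex in each of the 12 libraries, in CPM on a log axis (WT circles, ADAR hypomorph triangles, 18°C dark, 29°C pale, 3 libraries each). At 18°C the hypomorph lies below WT for Yp2, fit, Lsp2, Fbp1, Lsp1alpha and tobi and above it for roX2, and at 29°C the strains overlap for Lsp2.

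Genes of sugar and lipid metabolism were mostly lower. Of 16 genes for trehalose, glycogen and sugar transport, 1 was higher and 12 were lower (median -0.46, with total count scaling 1 higher and 8 lower, median -0.27). tobi, an alpha-glucosidase of the fat body that responds to insulin, was at 28.1, 24.8 and 21.1 CPM in WT and at 1.95, 2.61 and 4.42 CPM in the hypomorph (-2.97 ± 0.27 SE, edgeR adjusted p = 6.83e-07). Sorbitol dehydrogenase Sodh-1 was at 532, 416 and 492 CPM in WT and at 263, 288 and 300.1 CPM in the hypomorph (-0.76 ± 0.09 SE, edgeR adjusted p = 1.55e-05). The trehalose transporter Tret1-2 (-1.63) and the sugar transporter sut2 (-1.48) were lower, and the related sut1 was higher (0.73). The groups did not overlap in any of these 5 genes.

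Of 17 glycolytic genes, none was higher and 10 were lower, with a median of -0.19 that became 0.00 under total count scaling, where 4 were higher and 4 lower. Aldolase (Ald) was at 1792, 1828 and 1718 CPM in WT and at 1257, 1362 and 1386 CPM in the hypomorph (-0.41 ± 0.05 SE, edgeR adjusted p = 2.57e-05). The glycerol phosphate enzyme Gpdh was at 779.5, 826 and 754 CPM in WT and at 544, 567 and 576 CPM in the hypomorph (-0.48 ± 0.06 SE, edgeR adjusted p = 2.02e-05). Both kept their direction and their call under that scaling. Of 23 genes of lipid storage and fatty acid enzymes, 2 were higher and 15 lower (median -0.31, and with total count scaling -0.12 with 9 lower). The lipoprotein Rfabg, the main lipid carrier of fly blood, was at 3079, 3018 and 2880 CPM in WT and at 1408, 1667 and 1566 CPM in the hypomorph (-0.95 ± 0.06 SE, edgeR adjusted p = 1.16e-08). Mtp, which loads that carrier, was at 77.2, 83.4 and 86.5 CPM in WT and at 37.7, 42.4 and 43.7 CPM in the hypomorph (-0.99 ± 0.08 SE, edgeR adjusted p = 1.76e-07). The fatty acid synthase FASN1 was at 782, 792 and 846 CPM in WT and at 491, 502 and 547 CPM in the hypomorph (-0.65 ± 0.07 SE, edgeR adjusted p = 4.80e-06). The 3 genes of this route to circulating lipid were thus lower in every hypomorph library, while lipin (Lpin), a phosphatase of lipid synthesis, was higher (0.42 ± 0.07 SE, edgeR adjusted p = 5.39e-04).

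Of 19 genes of insulin and adipokinetic hormone signaling, none was higher and 5 were lower (median -0.11, which turned to 0.08 with total count scaling, where 1 was higher and 4 lower). The insulin-like peptide Ilp5, made in the brain, was at 50.9, 50.2 and 47.03 CPM in WT and at 29.5, 30.1 and 30.96 CPM in the hypomorph (-0.71 ± 0.09 SE, edgeR adjusted p = 1.87e-05). AkhR, the adipokinetic hormone receptor of the fat body, was at 41.03, 45.1 and 44.6 CPM in WT and at 29.7, 31.2 and 29.4 CPM in the hypomorph (-0.53 ± 0.12 SE, edgeR adjusted p = 0.00351). The secreted insulin-binding protein ImpL2 was at 68.7, 78.3 and 104 CPM in WT and at 58.2, 52.6 and 36.5 CPM in the hypomorph (-0.78 ± 0.19 SE, edgeR adjusted p = 0.00599), with the WT libraries spread more than those of the other genes. CCHa2, a nutrient-dependent peptide of the fat body and gut, was at 203, 192 and 196 CPM in WT and at 93.1, 91.1 and 97.4 CPM in the hypomorph (-1.07 ± 0.07 SE, edgeR adjusted p = 1.87e-08).

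Defense genes were lower in part. Of 25 tested antimicrobial peptides, none was higher and 12 were lower (median -0.52, and with total count scaling -0.32 with 7 lower). The attacin AttA was at 10.97, 12.96 and 14.998 CPM in WT and at 1.37, 1.37 and 0.8601 CPM in the hypomorph (-3.46 ± 0.71 SE, edgeR adjusted p = 0.00193). Drosocin (Dro) was at 271, 275 and 212 CPM in WT and at 57.2, 97.04 and 45.6 CPM in the hypomorph (-1.92 ± 0.55 SE, edgeR adjusted p = 0.0167). The related attacin AttB was at 36.9, 32.9 and 21.8 CPM in WT and at 4.295, 7.22 and 5.65 CPM in the hypomorph (-2.37 ± 0.76 SE, edgeR adjusted p = 0.0299). The groups did not overlap in these genes, yet the call of Dro was lost with adjusted p = 0.0614 without the unnumbered hypomorph library and 0.0633 without hypomorph replicate 3, and that of AttB with adjusted p = 0.0738 without the unnumbered WT library, 0.0709 without WT replicate 2, 0.0874 without the unnumbered hypomorph library, 0.0596 without hypomorph replicate 2 and 0.0777 without hypomorph replicate 3. AttA and AttB are near-identical copies, so the split of reads between them is uncertain. Listericin was at 391, 368 and 328 CPM in WT and at 127, 159 and 132 CPM in the hypomorph (-1.38 ± 0.09 SE, edgeR adjusted p = 3.12e-08), and its call held without any single library.

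The receptors and regulators that act before these peptides changed in both directions. The amidases PGRP-SC1a and PGRP-SC1b, near-identical enzymes that break down bacterial peptidoglycan, had 3 counts each over the WT libraries. PGRP-SC1b was at 0, 0.548 and 0 CPM in WT and at 29.3, 47.3 and 50.5 CPM in the hypomorph, a ratio of 249-fold (95% counting interval 84.9 to 1209). PGRP-LB, an amidase of the same family, was at 34.7, 28.5 and 24.3 CPM in WT and at 10.9, 13.3 and 10.4 CPM in the hypomorph (-1.32 ± 0.16 SE, edgeR adjusted p = 1.28e-05), in the opposite direction, and so was PGRP-SA, a receptor of the Toll pathway, at 55.3, 56.6 and 54.2 CPM in WT and at 28.3, 31.2 and 35.4 CPM in the hypomorph (-0.80 ± 0.12 SE, edgeR adjusted p = 1.07e-04). Of 29 genes of the Toll, Imd and JAK/STAT pathways, 2 were higher and 6 lower (median -0.20, with total count scaling 3 higher and 4 lower, median -0.01). The count of higher ones was 1 without the unnumbered WT library or WT replicate 2 and 0 without WT replicate 3, the unnumbered hypomorph library or hypomorph replicate 2. pirk, an inhibitor of Imd signaling that is itself induced by it, was at 9.65, 15.7 and 11.1 CPM in WT and at 2.34, 4.73 and 5.41 CPM in the hypomorph (-1.49 ± 0.32 SE, edgeR adjusted p = 0.002501). The Toll ligand spz was at 34.7, 35.8 and 33.2 CPM in WT and at 16.4, 19.3 and 19.8 CPM in the hypomorph (-0.89 ± 0.13 SE, edgeR adjusted p = 1.04e-04). SPE, the protease that cleaves it, was at 308, 276 and 289 CPM in WT and at 215, 218 and 223 CPM in the hypomorph (-0.41 ± 0.06 SE, edgeR adjusted p = 1.14e-04). Ligand, protease and receptor of the Toll route were all lower in every hypomorph library.

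Of 17 genes of clotting and melanization, 2 were higher and 10 lower (median -0.34, and with total count scaling -0.15 with 5 lower). Hml, a clotting protein of plasmatocytes, was at 73.3, 80.7 and 74.7 CPM in WT and at 37.3, 37.8 and 41.04 CPM in the hypomorph (-0.98 ± 0.08 SE, edgeR adjusted p = 2.73e-07). The phagocytosis receptor NimC1 was at 13.2, 15.2 and 14.1 CPM in WT and at 9.37, 8.34 and 9.22 CPM in the hypomorph (-0.66 ± 0.14 SE, edgeR adjusted p = 0.00217). The complement-like Tep2 was at 148, 157 and 148 CPM in WT and at 76.7, 85.7 and 102 CPM in the hypomorph (-0.78 ± 0.09 SE, edgeR adjusted p = 9.40e-06). PPO1, the prophenoloxidase of crystal cells, was higher, at 80.5, 83.1 and 74.6 CPM in WT and at 112, 101 and 119.8 CPM in the hypomorph (0.48 ± 0.08 SE, edgeR adjusted p = 4.42e-04). Of the 7 tested markers of blood cells, 4 were lower and 1 higher, with a summed level of 336, 339 and 335 CPM in WT and 296, 272 and 309 CPM in the hypomorph. Hml, NimC1 and PPO1 belong to both lists, and PPO1 is the higher marker. The part of blood cells in the defense genes was not tested.

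Enzymes of detoxification were mostly lower where they changed. Of 70 tested P450 genes, 4 were higher and 32 lower (median -0.43, with total count scaling 7 higher and 25 lower, median -0.24). After Cyp6a17, the largest fall was that of Cyp12a4, a mitochondrial P450, at 92.6, 85.8 and 96.5 CPM in WT and at 0.976, 1.62 and 2.09 CPM in the hypomorph (-5.79 ± 0.15 SE, edgeR adjusted p = 1.81e-12). Cyp309a2 was at 15.6, 16.3 and 21.3 CPM in WT and at 6.83, 7.34 and 5.898 CPM in the hypomorph (-1.42 ± 0.16 SE, edgeR adjusted p = 8.43e-06). Cyp6d4 was at 10.8, 8.399 and 12.5 CPM in WT and at 3.51, 3.86 and 4.18 CPM in the hypomorph (-1.45 ± 0.25 SE, edgeR adjusted p = 3.98e-04). The groups were separate in all of these. Of the 4 that were higher, Cyp4p1 was at 25.7, 25.9 and 22.7 CPM in WT and at 67.6, 71.2 and 71.1 CPM in the hypomorph (1.502 ± 0.12 SE, edgeR adjusted p = 2.32e-07). Cyp6a20 was at 6.14, 8.399 and 12.5 CPM in WT and at 24.4, 27.6 and 32.2 CPM in the hypomorph (1.61 ± 0.24 SE, edgeR adjusted p = 1.31e-04), and Cyp4g15, a P450 of the nervous system, rose by 0.44.

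Of 30 glutathione transferases, 3 were higher and 6 lower (median -0.11, which turned to 0.09 with total count scaling, where 6 were higher and 4 lower). GstE3 was at 128, 116 and 117 CPM in WT and at 64.04, 62.6 and 68.7 CPM in the hypomorph (-0.88 ± 0.07 SE, edgeR adjusted p = 3.39e-07), and its neighbours of the epsilon class GstE6 (-0.69) and GstE9 (-0.62) were lower as well. GstE4, of the same class, was higher, at 4.17, 2.74 and 1.02 CPM in WT and at 10.9, 3.73 and 6.88 CPM in the hypomorph with overlapping groups (1.47 ± 0.45 SE, edgeR adjusted p = 0.0246), a call lost with adjusted p = 0.0572 without WT replicate 2, 0.121 without WT replicate 3 and 0.120 without the unnumbered hypomorph library. GstD2, of the delta class, was higher too, at 8.995, 8.22 and 7.72 CPM in WT and at 33.97, 13.1 and 17.3 CPM in the hypomorph (1.34 ± 0.29 SE, edgeR adjusted p = 0.00256). Of 17 antioxidant enzymes, none was higher and 10 were lower (median -0.27, under total count scaling -0.08, where 2 were higher and 4 lower). The peroxiredoxin Prx2540-1 was at 176, 194 and 199 CPM in WT and at 90.6, 81.9 and 79.1 CPM in the hypomorph (-1.18 ± 0.12 SE, edgeR adjusted p = 3.28e-06). Catalase (Cat) was at 364, 363 and 351 CPM in WT and at 259, 278 and 275 CPM in the hypomorph (-0.41 ± 0.06 SE, edgeR adjusted p = 1.03e-04). The peroxiredoxin Jafrac1 was at 675, 663 and 618 CPM in WT and at 491, 480.5 and 485 CPM in the hypomorph (-0.43 ± 0.05 SE, edgeR adjusted p = 2.59e-05). Prx2540-1 has near-identical copies, and its share of their reads is uncertain. MtnA, a metallothionein that binds copper and other metals, was higher and abundant, at 1060, 1131 and 1046 CPM in WT and at 2373, 2428 and 2434 CPM in the hypomorph (1.16 ± 0.07 SE, edgeR adjusted p = 5.66e-09). Of 9 UDP-glycosyltransferases, 5 were lower, a count that was 3 without the unnumbered WT library, hypomorph replicate 2 or hypomorph replicate 3 and 2 without WT replicate 3 or the unnumbered hypomorph library (median -0.26, with total count scaling 2 higher and 1 lower, median -0.07). Ugt86Da was at 68.9, 74.1 and 61.2 CPM in WT and at 44.3, 54.1 and 44.7 CPM in the hypomorph (-0.51 ± 0.10 SE, edgeR adjusted p = 9.78e-04).

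Genes of cuticle were lower in part, with a wide spread in WT. Of 49 tested cuticle proteins, 2 were higher and 17 lower (median -0.48, with total count scaling 6 higher and 11 lower, median -0.29), and the count of higher ones was 0 without the unnumbered WT library, 1 without WT replicate 2, the unnumbered hypomorph library, hypomorph replicate 2 or hypomorph replicate 3 and 4 without WT replicate 3. The elastic protein resilin was at 5.05, 3.29 and 10.9 CPM in WT and at 0.586, 0.498 and 1.597 CPM in the hypomorph (-2.80 ± 0.57 SE, edgeR adjusted p = 0.00172). Cpr56F was at 3.73, 2.01 and 5.82 CPM in WT and at 0.586, 0.746 and 0.369 CPM in the hypomorph (-2.76 ± 0.55 SE, edgeR adjusted p = 0.00148). Cpr11A was at 5.92, 11.7 and 18.8 CPM in WT and at 2.73, 3.86 and 0.8601 CPM in the hypomorph (-2.32 ± 0.47 SE, edgeR adjusted p = 0.00172). In all 3 genes WT replicate 3 was the highest library, and no hypomorph library reached the lowest WT library. Idgf4, a chitinase-like secreted growth factor, was at 1475, 1430 and 1518 CPM in WT and at 826, 872 and 886 CPM in the hypomorph (-0.78 ± 0.05 SE, edgeR adjusted p = 4.02e-08), with a narrow spread.

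The odorant-binding proteins, small secreted carriers of odorants and other ligands, split. Of 35 tested, 7 were higher and 17 lower (median -0.35, with total count scaling 12 higher and 14 lower, median -0.16). Obp47b was at 10.1, 8.58 and 8.59 CPM in WT and at 1.37, 0.498 and 1.23 CPM in the hypomorph (-3.16 ± 0.29 SE, edgeR adjusted p = 8.58e-07). Obp56a was at 83.2, 88.7 and 72.7 CPM in WT and at 28.3, 35.8 and 34.03 CPM in the hypomorph (-1.31 ± 0.10 SE, edgeR adjusted p = 1.30e-07). Among the higher members were those of the antenna, and their levels depended on the library. Obp83a was at 21.5, 2.19 and 0 CPM in WT and at 116, 13.4 and 34.2 CPM in the hypomorph, and Os-C, a further antennal protein, at 6.58, 0 and 0.291 CPM in WT and at 48.03, 6.72 and 12.04 CPM in the hypomorph. In each strain the unnumbered library had the highest level. The summed level of 9 antennal genes, put together after their values were seen, was 89.96, 33.2 and 17.5 CPM in WT and 491, 84.8 and 178 CPM in the hypomorph, so that libraries of the same strain differed by more than 5-fold. The calls of Obp83a (2.92 ± 0.89 SE, edgeR adjusted p = 0.0233) and Os-C (3.43 ± 0.93 SE, edgeR adjusted p = 0.0126) were lost without the unnumbered hypomorph library (adjusted p = 0.180 and 0.0834), and the count of higher odorant-binding proteins was 3 without WT replicate 2 and 2 without WT replicate 3 or the unnumbered hypomorph library. They were lost too without WT replicate 2 (0.0982 and 0.0546) or WT replicate 3 (0.0744 and 0.0606).

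**Figure D4:**
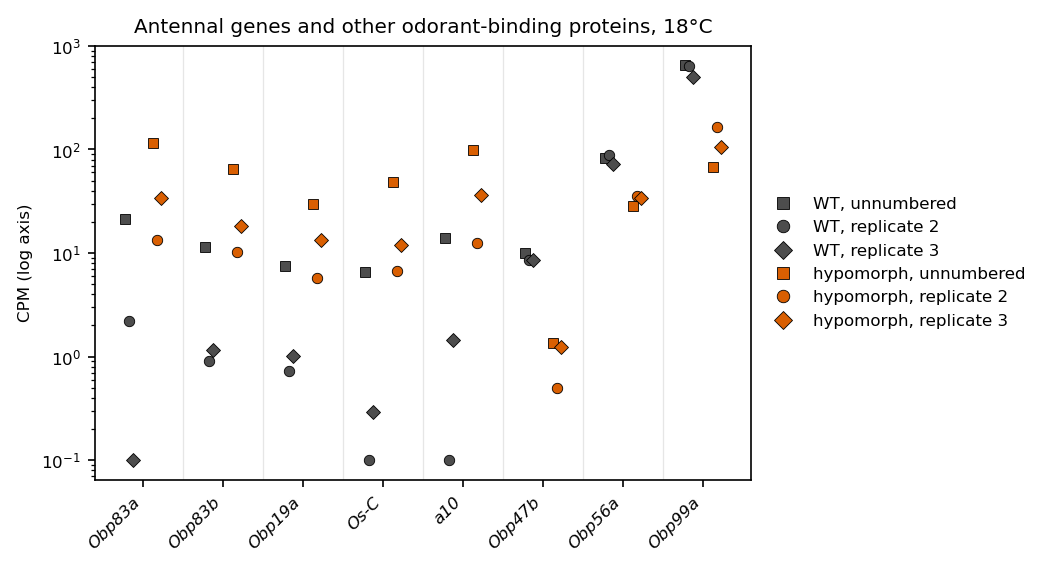
Level of 8 genes in each library at 18°C, in CPM on a log axis that shows values under 0.1 at 0.1, with the library marked by shape (unnumbered square, replicate 2 circle, replicate 3 diamond, WT dark, ADAR hypomorph orange). For the antennal genes on the left the square is the highest in both strains and the strains overlap or nearly touch, whereas Obp47b, Obp56a and Obp99a on the right separate by strain with all 3 libraries together.

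Some genes of signaling peptides and hormones changed, in either direction, under TMM. Of 36 neuropeptide genes, 6 were higher (16.7%, 2 genes without WT replicate 3) and 7 lower (19.4%), with a median of 0.07. These shares were little above the 11.6% and 14.6% of all genes tested, so the split is not read as a trait of the group. The split depends on the scaling, which gave 14 higher and 5 lower with total counts (median 0.26). Corazonin (Crz), a stress-related peptide, was at 27.9, 22.8 and 27.8 CPM in WT and at 47.8, 45.5 and 43.9 CPM in the hypomorph (0.80 ± 0.10 SE, edgeR adjusted p = 1.84e-05). The tachykinin gene Tk was at 12.3, 20.3 and 14.1 CPM in WT and at 26.7, 24.5 and 24.1 CPM in the hypomorph (0.68 ± 0.15 SE, edgeR adjusted p = 0.00376). Nplp2, the most abundant of the list, was at 16211, 16079 and 14734 CPM in WT and at 7918, 9352 and 8502 CPM in the hypomorph (-0.87 ± 0.06 SE, edgeR adjusted p = 6.22e-08). The eclosion hormone gene Eh was at 24.6, 23.7 and 15.7 CPM in WT and at 10.2, 13.6 and 11.6 CPM in the hypomorph (-0.84 ± 0.17 SE, edgeR adjusted p = 0.00184). Of 22 clock genes, 5 were higher (3 without the unnumbered WT library, WT replicate 2, the unnumbered hypomorph library or hypomorph replicate 3) and 3 lower (1 without WT replicate 3 or hypomorph replicate 3), with a median of 0.11. With total count scaling 11 were higher and none lower (median 0.30). Pdfr, the receptor of the clock peptide PDF, was at 21.7, 25.2 and 22.7 CPM in WT and at 45.9, 42.3 and 45.7 CPM in the hypomorph (0.94 ± 0.10 SE, edgeR adjusted p = 3.44e-06). Pdf itself was at 88.6, 85.3 and 87.1 CPM in WT and at 56.4, 66.4 and 74.3 CPM in the hypomorph (-0.40 ± 0.09 SE, edgeR adjusted p = 0.00398). Peptide and receptor therefore moved in opposite directions. The core clock gene tim was at 55.9, 50.03 and 60.1 CPM in WT and at 46.1, 38.6 and 37.7 CPM in the hypomorph (-0.45 ± 0.13 SE, edgeR adjusted p = 0.0163), a call that was lost with adjusted p = 0.0661 without WT replicate 3, 0.0598 without hypomorph replicate 2 and 0.0677 without hypomorph replicate 3. With total count scaling neither tim (adjusted p = 0.170) nor Pdf (0.0718) was called.

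Of 17 ecdysone-response genes, 6 were higher and 1 lower (median 0.30, with total count scaling 10 higher and none lower, median 0.49). Hr38, a nuclear receptor that is also induced by neuronal activity, was at 2.85, 2.92 and 2.91 CPM in WT and at 13.7, 11.2 and 9.83 CPM in the hypomorph (1.98 ± 0.22 SE, edgeR adjusted p = 5.81e-06). The calcium-binding Eip63F-1 was at 25.5, 20.4 and 25.9 CPM in WT and at 50.2, 50.01 and 45.95 CPM in the hypomorph (1.02 ± 0.13 SE, edgeR adjusted p = 1.98e-05). DopEcR, a receptor of both dopamine and ecdysone and one of the recoding targets, was at 34.7, 36.5 and 40.2 CPM in WT and at 68.1, 54.1 and 54.4 CPM in the hypomorph (0.66 ± 0.13 SE, edgeR adjusted p = 0.00135). None of the libraries overlapped between strains in these 3 genes. Jheh1, a juvenile hormone epoxide hydrolase, was lower, at 144, 136 and 137 CPM in WT and at 96.8, 94.8 and 82.2 CPM in the hypomorph (-0.61 ± 0.07 SE, edgeR adjusted p = 1.85e-05).

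Most genes of protein synthesis and folding shifted by little, with a few larger changes. Of 83 tested cytosolic ribosomal proteins, none was higher and 58 were lower, with a median of -0.22. Under total count scaling the median was -0.04 and 3 were higher and 10 lower, so the fall of the group depends on the scaling. RpS21 was at 2570, 2574 and 2429 CPM in WT and at 1507, 1734 and 1733 CPM in the hypomorph (-0.61 ± 0.06 SE, edgeR adjusted p = 1.19e-06). RpLP1 was at 4713, 4721 and 4430 CPM in WT and at 2784, 3292 and 3282 CPM in the hypomorph (-0.57 ± 0.06 SE, edgeR adjusted p = 7.54e-06), and both remained lower under total count scaling. Of 73 mitochondrial ribosomal proteins, 3 were higher and 2 lower (median 0.03, with total count scaling 25 higher and 2 lower, median 0.22). Of 20 chaperones of the endoplasmic reticulum, 2 were higher and 8 lower (median -0.23, with total count scaling 3 higher and 5 lower, median -0.04). The main chaperone of this compartment, Hsc70-3 (BiP), was at 282, 287 and 264 CPM in WT and at 195, 206 and 201 CPM in the hypomorph (-0.47 ± 0.06 SE, edgeR adjusted p = 4.40e-05), and Pdi, which forms disulfide bonds, at 471, 538 and 442 CPM in WT and at 251, 337 and 289 CPM in the hypomorph (-0.73 ± 0.09 SE, edgeR adjusted p = 2.52e-05). Calnexin (Cnx99A), in contrast, was at 50.7, 50.6 and 44.4 CPM in WT and at 92.2, 90.1 and 83.6 CPM in the hypomorph (0.87 ± 0.08 SE, edgeR adjusted p = 1.45e-06), higher in all 3 hypomorph libraries. Of 8 tested small heat shock proteins, 1 was higher and 4 were lower (median -0.42, with total count scaling 1 higher and 1 lower, median -0.24), and the count of lower ones was 2 without the unnumbered WT library, WT replicate 2 or hypomorph replicate 2 and 1 without WT replicate 3 or hypomorph replicate 3. The largest fall among them was that of Hsp23, at 23.5, 12.2 and 18.1 CPM in WT and at 8.98, 7.46 and 5.65 CPM in the hypomorph (-1.30 ± 0.20 SE, edgeR adjusted p = 1.66e-04). Of 19 genes of the Hsp70 and Hsp90 families and their partners, 3 were higher and 1 was lower (median 0.00, with total count scaling 7 higher and 1 lower, median 0.19). Hsc70-2, a relative of Hsp70, had the largest change, at 0.878, 0 and 0.582 CPM in WT and at 8.01, 5.72 and 5.16 CPM in the hypomorph (3.66 ± 0.67 SE, edgeR adjusted p = 7.49e-04), from few counts in WT. The heat shock factor Hsf was at 29.6, 30.7 and 30.6 CPM in WT and at 40.6, 39.4 and 39.3 CPM in the hypomorph (0.39 ± 0.08 SE, edgeR adjusted p = 0.00196).

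Single subunits of the V-ATPase and the proteasome changed, while the shares of called members were near or below those of all genes tested. The a-subunit Vha100-1 of the proton pump V-ATPase, used by neurons, was at 113, 116 and 112 CPM in WT and at 62.5, 50.9 and 54.8 CPM in the hypomorph (-1.03 ± 0.08 SE, edgeR adjusted p = 1.81e-07). Vha36-3 was at 52.7, 44.2 and 53.6 CPM in WT and at 27.9, 31.5 and 22.2 CPM in the hypomorph (-0.88 ± 0.12 SE, edgeR adjusted p = 5.09e-05), while VhaM9.7-a was higher, at 111, 102 and 105 CPM in WT and at 154, 145 and 148 CPM in the hypomorph (0.50 ± 0.06 SE, edgeR adjusted p = 1.94e-05). Of 20 tested V-ATPase genes, 3 were higher and 3 lower (median -0.03, which turned to 0.16 with total count scaling, where 9 were higher and 2 lower). Of 33 proteasome genes, 3 were lower (9.09%) and none higher. The count of lower ones was 5 without the unnumbered WT library or hypomorph replicate 3. Their median was -0.18 (with total count scaling none higher and 2 lower, median 0.01). Prosalpha1 fell most, at 383, 427 and 489.7 CPM in WT and at 142, 133 and 146 CPM in the hypomorph (-1.63 ± 0.09 SE, edgeR adjusted p = 1.94e-09). Prosalpha1 had the same counts as CG30382 in every library, so these reads cannot be given to one of the pair. Of 28 muscle genes, 1 was higher and 10 lower (median -0.19, 0.00 under total count scaling with 4 higher and 3 lower). TpnC73F, a troponin C, was at 66.7, 35.6 and 94.1 CPM in WT and at 21.9, 18.7 and 12.2 CPM in the hypomorph (-1.92 ± 0.28 SE, edgeR adjusted p = 9.72e-05), with WT replicate 2 closest to the hypomorph.

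Of 15 tested genes of RNA editing and double-stranded RNA, Adar included, 2 were higher and 3 lower (median -0.02, which turned to 0.17 with total count scaling, where 4 were higher and 2 lower). Dcr-2, the Dicer of the small interfering RNA pathway, was at 29.8, 23.7 and 21.4 CPM in WT and at 15.6, 15.3 and 17.3 CPM in the hypomorph (-0.62 ± 0.13 SE, edgeR adjusted p = 0.00237), and Tudor-SN, a nuclease known from vertebrates to act on inosine-containing RNA, at 135, 146 and 131 CPM in WT and at 90.6, 99.8 and 101 CPM in the hypomorph (-0.50 ± 0.08 SE, edgeR adjusted p = 1.44e-04). The double-stranded RNA binding protein loqs was higher, at 55.7, 44.9 and 38.9 CPM in WT and at 61.5, 58.8 and 69.7 CPM in the hypomorph (0.45 ± 0.11 SE, edgeR adjusted p = 0.00709), and so was AGO1, the effector of microRNAs (0.38). Groups did not overlap in these 4 genes.

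Among the largest changes of single genes were several of unnamed function. CG13492 had 0 counts in WT and 9.76, 14.1 and 17.2 CPM in the hypomorph, at least 24.97-fold higher, and the same pattern held for CG3397 (at least 15.4-fold), CG33655 (at least 3.69-fold) and the noncoding RNAs CR45352 (at least 8.42-fold), CR45625 (at least 5.85-fold) and CR43767 (at least 5.05-fold). CG4629, on chromosome arm 2L, was at 1.54, 1.096 and 2.04 CPM in WT and at 39.8, 39.6 and 45.2 CPM in the hypomorph (4.69 ± 0.23 SE, edgeR adjusted p = 1.06e-09), and CG14367, on 3R, at 4.83, 1.64 and 2.91 CPM in WT and at 60.7, 60.3 and 55.5 CPM in the hypomorph (4.27 ± 0.31 SE, edgeR adjusted p = 6.67e-08). Both strains were far apart in these genes, with narrow spreads. CG9616 rose by 4.02 ± 0.51 (SE, edgeR adjusted p = 2.49e-05), and Che-13, a protein of intraflagellar transport in cilia, had 1 count in WT and 57 in the hypomorph (45.2-fold, 95% counting interval 7.799 to 1818). CR45668 had 2 and 176 (69.8-fold, 95% counting interval 19.1 to 581), and CG31157 had 2 and 43 (17.1-fold, 95% counting interval 4.45 to 145).

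Falls of the same kind were those of CG42392, at 0 in the hypomorph and 3.29, 4.56 and 3.49 CPM in WT (at least 8.55-fold lower), CR42767, with 166 counts in WT and 3 in the hypomorph (69.7-fold, 95% counting interval 23.4 to 342), and CG32650, with 49 and 1 (61.8-fold, 95% counting interval 10.6 to 2488). CG9360 was at 5.05, 4.56 and 4.51 CPM in WT and at 0.195, 0.249 and 0.614 CPM in the hypomorph (-3.59 ± 0.42 SE, edgeR adjusted p = 1.11e-05). The noncoding RNA CR44994 was at 5.704, 4.1996 and 2.48 CPM in WT and at 0, 0.498 and 0 CPM in the hypomorph (-4.31 ± 0.78 SE, edgeR adjusted p = 6.54e-04). CG14573 was at 5.05, 2.19 and 9.46 CPM in WT and at 0.976, 0.124 and 0.369 CPM in the hypomorph (-3.66 ± 0.68 SE, edgeR adjusted p = 8.58e-04). These genes were low in both strains, and their values in the hypomorph rest on few counts. CG2650 was more abundant and the most variable of the large falls, at 176, 198 and 525 CPM in WT and at 12.3, 7.96 and 1.72 CPM in the hypomorph (-5.45 ± 0.82 SE, edgeR adjusted p = 1.31e-04). Of the abundant genes that fell by more than 2-fold, isoQC, a glutaminyl cyclase that modifies the ends of peptides, was at 1721, 1684 and 1462 CPM in WT and at 704, 691 and 789 CPM in the hypomorph (-1.16 ± 0.07 SE, edgeR adjusted p = 1.16e-08). CG6409 was at 1079, 854 and 1070 CPM in WT and at 479.9, 376 and 375 CPM in the hypomorph (-1.29 ± 0.10 SE, edgeR adjusted p = 1.30e-07). CG31313 was at 456, 445 and 496 CPM in WT and at 219.8, 228 and 214 CPM in the hypomorph (-1.08 ± 0.07 SE, edgeR adjusted p = 1.56e-08). IMPPP, a precursor of immune-induced peptides, was at 492, 452 and 495 CPM in WT and at 148, 234 and 165 CPM in the hypomorph (-1.39 ± 0.13 SE, edgeR adjusted p = 1.47e-06) and had the same counts as CG33470 in every library.

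Genes beyond a log2 fold change of 1 lay on all chromosomes. They made up 6.95% of the 1569 tested genes of the X chromosome and 3.53% to 4.69% on the 4 large autosome arms. On the small chromosome 4, 25 of 86 genes were higher (29.1%) and 4 lower (4.65%), with a median log2 fold change of 0.15, and 1 gene passed 1. Among the 24 tested genes nearest to Adar, 12 on each side in the gene order of the reference annotation, 2 were called in either direction. Of all genes tested, 26.2% were called in either direction. The X chromosome as a whole had a median of 0.03. These shares are a description, since genes of a chromosome are not independent.

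The strain effect at 18°C differed from that at 29°C for 222 genes (2.32%, interaction term of the same fit, edgeR adjusted p under 0.05), and at 29°C 8.81% of genes were higher and 10.2% lower. Such genes were frequent in the groups of the fat body, of metabolism and of muscle. All 6 larval serum genes, and Yp1, Yp2, Yp3, fit and the binding protein gene Obp99b (-0.95 at 18°C), had a lower strain effect at 18°C, as did 6 of 17 glycolytic genes, 5 of 16 sugar genes and 7 of 28 muscle genes. The interaction was fitted with TMM scaling only. Whether small differences shared by a group, such as those of the glycolytic and muscle genes, hold under total count scaling was not tested. Lsp2 changed by -5.26 at 18°C and -0.22 at 29°C, a difference of -5.04 ± 0.27 (SE, edgeR adjusted p = 5.51e-08). Yp2 changed by -1.98 at 18°C and -0.72 at 29°C, a difference of -1.26 ± 0.16 (SE, edgeR adjusted p = 4.14e-04), so that the yolk proteins were lower at both temperatures and more so in the cool. In the phototransduction list 1 gene of 38, the rhodopsin chaperone ninaA, had such a difference (1.03 at 18°C and 0.53 at 29°C, a difference of 0.49 ± 0.12 (SE, edgeR adjusted p = 0.0438)), and ninaE changed by 2.60 at 18°C and 2.56 at 29°C, a difference of 0.04 ± 0.13 (SE, edgeR adjusted p = 0.933). No gene of the channel, receptor, release or recoding lists differed in its strain effect between the temperatures at this threshold, and their medians at 29°C were 0.25, 0.17, 0.13 and 0.24. Rab3-GEF, which is in none of these lists, changed by -3.79 at 18°C and -1.94 at 29°C, a difference of -1.85 ± 0.26 (SE, edgeR adjusted p = 9.89e-04).

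**Figure D5:**
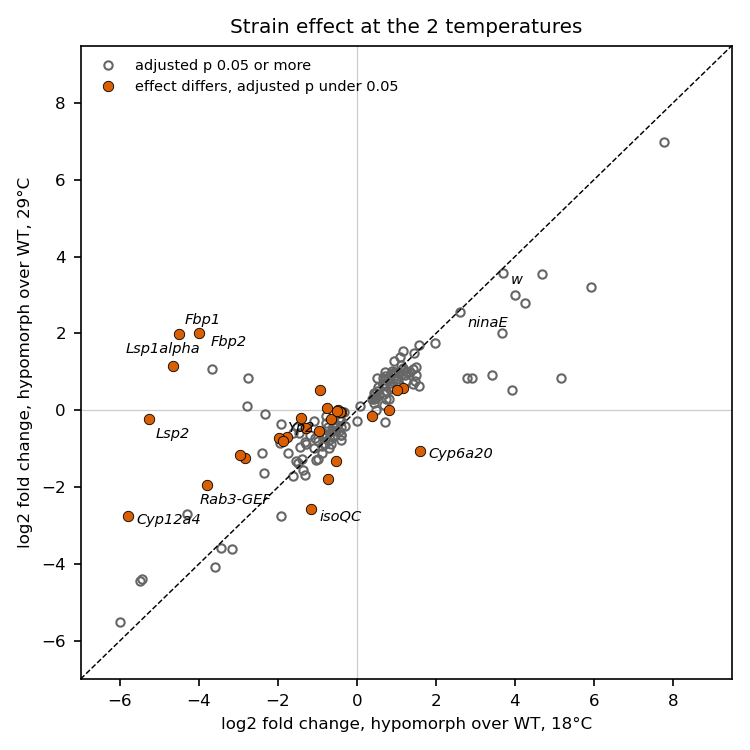
Log2 fold change between the strains at 18°C (horizontal) and 29°C (vertical) for the genes named in the text with a fold change at both temperatures, with the diagonal of equal effects (dashed). Filled points are genes whose effect differed between the temperatures at an adjusted p under 0.05. Lsp2, Fbp1, Fbp2 and Lsp1alpha lie far below 0 on the horizontal axis and near or above 0 on the vertical axis, while ninaE and w lie on the diagonal.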

How the data were processed

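Polyadenylated 3' ends of RNA from fly heads were sequenced in 12 libraries of 4 groups. The deposited table holds read counts per gene symbol for 15423 genes, made by the authors with TopHat on the dm3 genome and transcriptome and with ESAT, whose versions are not given in the sources used here. The 4 columns of counts that match none of the samples were left out. A column in each group carries no replicate number and was kept as a library of its group. Nothing states that replicates were separate cultures, so p-values measure the spread between these samples, which may be technical.

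Counts were tested with edgeR 4.0.16 in R 4.3.3 (filterByExpr, minimum count 10, TMM, quasi-likelihood test) in a fit of all 12 libraries, with Benjamini-Hochberg adjustment over 9553 genes and an adjusted p under 0.05 called. The biological coefficient of variation was 12.9%. The study itself used DESeq with a log2 fold change beyond 1 and an unadjusted p under 0.05, and that criterion was also counted. In a simulation of this comparison over 9553 genes, 200 genes with a mean of at least 5 CPM were changed by 1.5 on the log2 scale. Of these, 192 (96%) were recovered, with 4 false calls. The simulation changed no gene of lower level and held no difference in composition between the strains, so it does not cover either. DESeq2 1.42.0, other scalings, other filters, fewer libraries, a replicate block and the omission of each library were the alternatives. Tables and plots were made with Python 3.11.15, numpy 2.4.6, pandas 2.3.3 and matplotlib 3.10.9. The floor for a gene at 0 was 3 counts per library, and floors and intervals cover counting error only, since reads carried no molecular identifiers in the sources used here. Chromosomes were those given with the deposited counts. Gene order came from a later annotation than dm3, matched by symbol for 9488 of the tested genes, and no coordinates are given.

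Named genes were Adar, the 15 largest rises and 15 largest falls, the 10 higher and 10 lower genes of highest mean CPM beyond a log2 fold change of 1, and up to 4 called members of each list in each direction, from genes whose strains did not overlap and whose higher group had a mean of at least 10 normalized counts (lists: called members). Members and lists were chosen with earlier results of these data known. Further members, such as those of phototransduction, were named by their role after their values were seen, a few genes of the rule were left in the counts, the antennal list was put together after values were seen, and the patterns of 3 lists (UDP-glycosyltransferases, proteasome, ribosomal proteins) were corrected then.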

Additional observations from a re-analysis of the deposited data

Results flagged for a closer look

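For 29 of the named genes the difference between the strains at 18°C was itself different from that at 29°C, by the interaction term of the same fit (edgeR adjusted p under 0.05, over all genes tested). Values are the log2 fold change at 18°C minus that at 29°C, with TMM scaling, the only scaling in which they were tested. Among products of the fat body, Fbp1 changed by -4.52 at 18°C and 1.99 at 29°C (difference -6.50), and the difference was also negative for Lsp1alpha (-5.81), Lsp2 (-5.04), Fbp2 (-6.03), Yp1 (-1.07), Yp2 (-1.26), Yp3 (-1.07), fit (-1.57) and Obp99b (-1.47). Genes of sugar and lipid metabolism and the calcium-binding smp-30 followed, with Ald (-0.38), Gpdh (-0.50), FASN1 (-0.44), Rfabg (-0.42), Sodh-1 (-0.81), tobi (-1.79) and smp-30 (-0.82). Cyp12a4 and Rab3-GEF were lower at both temperatures and more so at 18°C (-3.03 and -1.85), and Jafrac1 (-0.39), Tudor-SN (-0.48) and Cyp309a2 (-1.21) had a negative difference as well. The difference was positive for Crz (0.80), Hsf (0.54), MtnA (0.58), ninaA (0.49), Amy-p (1.05), TotX (0.79), isoQC (1.42) and Cyp6a20 (2.66). Of these, Cyp6a20 was higher in the hypomorph at 18°C (1.61) and had a change of -1.05 at 29°C, whereas isoQC was lower at both temperatures, by less at 18°C (-1.16) than at 29°C (-2.58). Groups of 3 libraries are too small to single out a library by its distance from the others.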

How the results depend on the processing

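The counts of 1109 higher and 1391 lower genes became 2640 and 780 with total count scaling, and 650 higher with the replicate block in the 8 numbered libraries (954 lower) against 699 higher in those libraries without the block (1018 lower). With the criterion of the study, 231 were higher and 295 lower, 360 were higher with total count scaling, and 96 and 158 passed once each library had to hold 10 or more counts of a gene. Leaving out 1 library gave 843 to 998 higher and 1193 to 1293 lower genes, and 209 to 251 and 278 to 313 with that criterion. Adar changed by -0.62 to -0.25 without 1 library, by -0.42 with only the 6 libraries at 18°C (adjusted p = 0.0704) and by -0.22 with total count scaling (0.298). Of 185 called genes named here, 159 kept their call in each of the 14 alternatives that tested them, 26 lost it in at least 1 and none changed direction. With total count scaling Rh2 (0.19, adjusted p = 0.0493) and santa-maria (0.26, 0.0117) were called higher. With the 8 numbered libraries, without or with the block, AGO1, Dcr-2, bw, v, Pdf, msl-2, AttB, Tk, Tret1-2, GstE4, Gr64c and Gr66a lost their calls, as did Dro and Eh without the block and beat-Ic, ninaB, sxe2 and Or63a with it. Obp83a, Os-C and roX1 were not called by DESeq2. The deviations of same-numbered libraries from their group means at 18°C gave r = -0.01 and -0.07 across genes, which are not independent, so these libraries were taken to share only a number. Counting genes with identical counts once, chosen after seeing the data, gave 1104 higher and 1387 lower. Of the called members per list, 106 counts in all, 46 moved by over 1.5 times with total count scaling and 12 to 20 without 1 library. Many of these counts were 3 or fewer. Those moved by total count scaling also included large ones, such as lower cytosolic ribosomal genes (58 to 10), lower lipid genes (15 to 9) and higher voltage-gated channels (15 to 23). Genes under about 10 counts in the higher strain were below what the depth of 4409119 to 7449096 counts could test.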

Other observations

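A few gene groups outside the comparison above held members that changed. Of 5 tested Turandot and cold-response genes, the hypomorph had 2 at a lower level at 18°C and none at a higher one, and the count of lower ones was 5 without hypomorph replicate 3. Their summed level was 1313, 1251 and 1054 CPM in WT and 693, 562 and 1774 CPM in the hypomorph, so that hypomorph replicate 3 stood apart from the other hypomorph libraries. smp-30, which encodes the calcium-binding regucalcin and is known to respond to cold in flies, was at 186, 146 and 135 CPM in WT and at 63.3, 63.1 and 64.998 CPM in the hypomorph (-1.28 ± 0.11 SE, edgeR adjusted p = 3.83e-07). TotX, a secreted stress protein, was at 59.02, 65.4 and 58.4 CPM in WT and at 36.1, 40.4 and 48.9 CPM in the hypomorph (-0.54 ± 0.11 SE, edgeR adjusted p = 0.00155). Of 20 tested digestive enzymes, 2 were lower and none was higher, a count of higher ones that was 1 without the unnumbered hypomorph library or hypomorph replicate 2. The amylase Amy-p was at 66.9, 68.3 and 71.3 CPM in WT and at 40.8, 46.9 and 36.001 CPM in the hypomorph (-0.74 ± 0.13 SE, edgeR adjusted p = 4.94e-04), and the maltase Mal-B2 at 169.8, 144 and 195 CPM in WT and at 119.9, 121 and 97.6 CPM in the hypomorph (-0.59 ± 0.10 SE, edgeR adjusted p = 5.52e-04). The groups did not overlap in any of these 4 genes. Markers of gut summed to 370.1, 352 and 385 CPM in WT and 329, 331 and 379.9 CPM in the hypomorph, and these sums overlapped between the strains. Jhedup, a duplicate of the juvenile hormone esterase gene, was at 7.02, 1.64 and 0.146 CPM in WT and at 30.8, 7.46 and 17.6 CPM in the hypomorph (2.80 ± 0.62 SE, edgeR adjusted p = 0.00323), with the unnumbered library the highest in each strain, as for the antennal genes. Of 140 olfactory, gustatory and ionotropic receptors, 11 passed the filter on low counts, of which 3 (Gr64c, Gr66a and Or63a) were lower and none higher. Each of these 3 calls was lost without at least 1 library, and the count of lower ones was 1 without WT replicate 2 or WT replicate 3 and 0 without hypomorph replicate 3.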
